A study of Mus musculus with 9 samples.

Results

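The Sonic hedgehog pathway was described here through 10 genes, Shh, Ptch1, Smo, Gas1, Boc, Cdon, Sufu, Gli1, Gli2 and Gli3, which were found by symbol among the 27095 loci of the expression table. Each symbol belonged to 1 locus. The genes were chosen for their place in the pathway and its link to midline defects after ethanol exposure, not for their values. Gestational day 17 was the age of the 9 wild type C57BL/6 mouse fetuses sequenced (C57BL/6J in the methods), which formed a control, an EtOH-exposed unaffected and an EtOH-exposed affected group of 3 each. Dams of the exposed fetuses were injected with EtOH at 2.9 g/kg on gestational day 7, and control dams received lactated Ringer's solution at that time. Whether an exposed fetus was placed in the affected or the unaffected group depended on visible ocular and cortical patterning defects, so these 2 groups were selected by phenotype. The labels name the tissue as fetal brain and the methods as cortex. Each group has a single FPKM value per locus in the table (fragments per kilobase of exon, scaled to the number of mapped fragments), so no value below carries an error between animals, and no difference below was tested against that error.

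Sonic hedgehog is a secreted protein that ventralises the early forebrain and later keeps progenitors of the brain dividing. It binds Patched 1 (Ptch1), which otherwise holds Smoothened (Smo) inactive, and the proteins encoded by Cdon, Boc and Gas1 assist this binding as co-receptors. Active Smo at the primary cilium releases the Gli transcription factors from Sufu, so that Gli2 acts mainly as an activator and less Gli3 is cut into its repressor form. Gli1 and Ptch1 are themselves switched on by the pathway and serve as its common readouts. Loss of Shh signalling early in development causes holoprosencephaly, the failure of the forebrain to divide along the midline.

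In affected offspring, Gli2, Gli3, Cdon and Sufu were the pathway genes with the highest ratios to control among those with a mean FPKM of at least 1, between 1.38-fold and 1.69-fold. The same 4 genes were 1.45-fold to 1.76-fold higher in affected than in unaffected offspring. Boc was 1.18-fold of control, Ptch1, Smo and Gas1 differed from control by no more than 1.12-fold, and Gli1 was 0.91-fold of control. In unaffected offspring, the 8 genes with a mean FPKM of at least 1 lay between 0.90-fold and 1.11-fold of control.

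The promoters of the 4 genes that stood higher in affected offspring are shown with that of Ptch1, because they show the sequence at the RefSeq starts of genes whose levels stood higher together, beside that of a common pathway readout. Each is the 300 bases from 250 before to 50 after the start of the gene in RefSeq on GRCm38.p6 (the assembly called mm10), printed 5′ to 3′ on the strand of the gene, with CG dinucleotides in capitals. Gli2 lies at chr1:119053570-119053869 on the minus strand, Gli3 at chr13:15463473-15463772 on the plus strand, Cdon at chr9:35451826-35452125 on the plus strand, Sufu at chr19:46396646-46396945 on the plus strand and Ptch1 at chr13:63565686-63565985 on the minus strand.
Gli2: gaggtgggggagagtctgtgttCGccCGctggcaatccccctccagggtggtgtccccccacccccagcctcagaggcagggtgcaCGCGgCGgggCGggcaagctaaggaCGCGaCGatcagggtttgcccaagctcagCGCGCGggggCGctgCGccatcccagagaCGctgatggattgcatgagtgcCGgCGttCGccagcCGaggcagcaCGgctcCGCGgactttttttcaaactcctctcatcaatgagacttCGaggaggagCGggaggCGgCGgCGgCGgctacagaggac
Gli3: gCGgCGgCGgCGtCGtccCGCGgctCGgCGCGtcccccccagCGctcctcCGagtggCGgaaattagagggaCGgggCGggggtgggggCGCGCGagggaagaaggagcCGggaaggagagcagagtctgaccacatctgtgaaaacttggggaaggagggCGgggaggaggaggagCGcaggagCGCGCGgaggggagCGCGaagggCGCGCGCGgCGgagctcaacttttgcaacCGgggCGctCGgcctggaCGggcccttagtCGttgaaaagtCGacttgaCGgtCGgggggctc
Cdon: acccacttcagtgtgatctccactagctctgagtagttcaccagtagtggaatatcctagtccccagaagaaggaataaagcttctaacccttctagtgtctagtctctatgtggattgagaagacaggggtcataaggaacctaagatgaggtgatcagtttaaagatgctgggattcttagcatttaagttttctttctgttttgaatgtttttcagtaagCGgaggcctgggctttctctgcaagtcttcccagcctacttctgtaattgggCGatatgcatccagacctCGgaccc
Sufu: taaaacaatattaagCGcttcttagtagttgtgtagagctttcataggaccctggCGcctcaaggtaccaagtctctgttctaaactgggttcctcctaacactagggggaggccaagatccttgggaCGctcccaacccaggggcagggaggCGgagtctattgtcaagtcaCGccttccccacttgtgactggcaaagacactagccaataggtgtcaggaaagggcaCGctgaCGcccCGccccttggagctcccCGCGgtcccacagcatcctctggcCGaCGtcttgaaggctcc
Ptch1: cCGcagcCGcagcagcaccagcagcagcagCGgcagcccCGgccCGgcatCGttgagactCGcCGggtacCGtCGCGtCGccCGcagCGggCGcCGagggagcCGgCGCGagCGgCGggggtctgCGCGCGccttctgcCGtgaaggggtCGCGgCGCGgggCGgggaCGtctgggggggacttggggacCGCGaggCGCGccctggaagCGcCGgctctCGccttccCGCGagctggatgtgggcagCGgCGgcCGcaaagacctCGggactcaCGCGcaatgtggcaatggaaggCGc
The number of CG dinucleotides was 39 in Gli3, 28 in Gli2, 12 in Sufu and 3 in Cdon, against a median of 7 over the 32851 promoters of the same length. Ptch1 had 47, more than 98.6% of all promoters. These counts hold for the RefSeq start used. GENCODE M21 begins Gli3 at 15463235, Cdon at 35421128 and Ptch1 at 63573598, each upstream of the window shown, and Gas1 at 60177365, downstream of the window searched. The Gli binding site was searched as GACCACCCA on both strands, and it occurred in 83 of all promoters (0.253%). None of the 7 pathway genes with an entry, which are these 5 with Gas1 and Smo, held it in this window.

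The levels of the genes are comparable with each other because FPKM is scaled to length. The order of the 10 genes was the same in all 3 groups, from Gas1 as the highest through Smo, Sufu, Cdon, Boc, Ptch1, Gli3, Gli2 and Gli1 to Shh as the lowest. Without values of single animals, it cannot be said which neighbours in this order differ beyond their spread. A log2 ratio past 0.32 in either direction was counted as a difference (the threshold), and loci with a mean FPKM of at least 1 over the 3 groups were counted, which were 15455 loci and 8 of the 10 genes. Shh and Gli1, with mean FPKM of 0.434 and 0.990, lay below it and are given by their values alone.

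**Figure D1:**
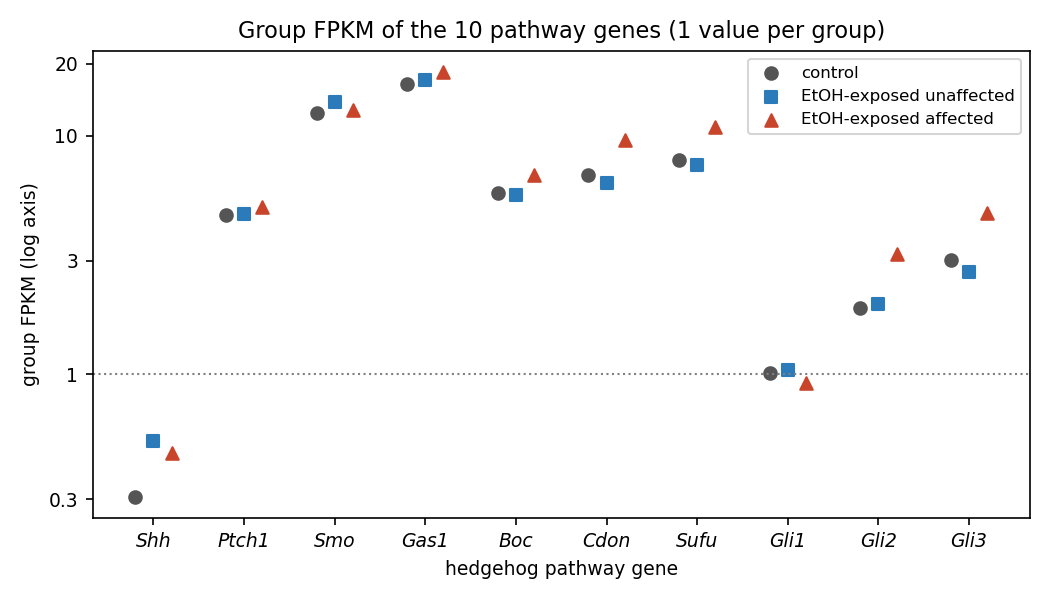
Group FPKM on a log axis for the 10 pathway genes in the control, unaffected and affected groups, with 1 point per group and a dotted line at an FPKM of 1. The affected points of Gli2 (3.20), Gli3 (4.76), Cdon (9.61) and Sufu (10.9) stand above both other groups, whose points lie close together.

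Shh, the ligand, had an FPKM of 0.308 in control, 0.524 in the unaffected and 0.470 in the affected group. Both exposed groups stood above control, with log2 ratios of 0.77 and 0.61, at levels below an FPKM of 1. The table gives its locus as chromosome 5 of mm10 from 28456840 to 28719209, a span of 262370 bases, while the GENCODE M21 annotation places Shh from 28456815 to 28467256. The gene 9530036O11Rik has the same coordinates in the table and a value of its own, with an FPKM of 0.0198 in control, 0.0429 in the unaffected and 0.0250 in the affected group. How far this gene overlaps Shh was not examined. No use of strand is stated for the counting, so reads from any stretch shared by both genes cannot be told apart. The other ligands, Ihh and Dhh, had an FPKM of 0.110 and 0.114 in control, and none of the 3 ligands reached 1 in any group.

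Ptch1, the receptor, had an FPKM of 4.64 in control, 4.71 in the unaffected and 5.03 in the affected group (chromosome 13 from 63510774 to 63566251). The 3 groups lay close together, with log2 ratios to control of 0.02 in unaffected and 0.12 in affected offspring. Smo, the signal transducer that Ptch1 holds in check, had 12.5 in control, 13.9 in the unaffected and 12.8 in the affected group (chromosome 6 from 29735497 to 29761366). The FPKM ratio of Smo to Ptch1 was 2.69 in control, 2.95 in the unaffected and 2.55 in the affected group.

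Among the co-receptors, Cdon, a surface protein of the immunoglobulin superfamily, differed most. Its FPKM was 6.82 in control, 6.36 in the unaffected and 9.61 in the affected group (chromosome 9 from 35452076 to 35507652). The affected group was the high one, with a log2 ratio of 0.49 to control and 0.59 to unaffected, while the unaffected group stood 0.10 below control. Boc, the related co-receptor, had 5.76, 5.67 and 6.83 in control, unaffected and affected offspring (chromosome 16 from 44485045 to 44558911), and its log2 ratio of affected offspring was 0.24 to control and 0.27 to unaffected. Gas1, which is anchored to the membrane by a lipid, was the most abundant of the 10 genes, with 16.5 in control, 17.0 in the unaffected and 18.5 in the affected group (chromosome 13 from 60174405 to 60177535). Summed over the 3 co-receptors, the FPKM was 29.1 in control, 29.1 in the unaffected and 34.9 in the affected group. Cdon made up 23.5% of this sum in control, 21.9% in the unaffected and 27.5% in the affected group, and Gas1 56.7%, 58.6% and 53.0%.

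Sufu, which binds Gli proteins in the cytoplasm and restrains them, had an FPKM of 7.93 in control, 7.51 in the unaffected and 10.9 in the affected group (chromosome 19 from 46396918 to 46488805). As for Cdon, the affected group was high and the unaffected group slightly below control, with log2 ratios to control of 0.46 and -0.08. The ratio of affected to unaffected offspring was 0.54 on the log2 scale.

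Gli2 had the highest ratio of affected to control offspring among the 8 genes. Its FPKM was 1.89 in control, 1.97 in the unaffected and 3.20 in the affected group (chromosome 1 from 118834061 to 119053619), which gives log2 ratios of 0.76 to control and 0.70 to unaffected. Of the 15455 loci, 2.23% had a higher ratio to control. Gli3, whose repressor form guards dorsal identity in the developing cortex, had 3.01 in control, 2.70 in the unaffected and 4.76 in the affected group (chromosome 13 from 15463306 to 15730025). It had the highest ratio to unaffected offspring, with a log2 value of 0.82 that 3.03% of loci exceeded, and its log2 ratio to control was 0.66.
Gli1, the third factor of the family and a target of the pathway, did not follow the other two. Its FPKM was 1.01 in control, 1.04 in the unaffected and 0.919 in the affected group (chromosome 10 from 127323727 to 127341579), with a log2 ratio of -0.14 for affected against control, which became 0.04 when the groups were scaled to the same sum over loci of at least 1000 bases. This locus also carries the coordinates of Arhgap9, which had an FPKM of 0.229 in control and 0.175 in affected offspring. The FPKM ratio of Gli2 to Gli1 was 1.88 in control, 1.90 in the unaffected and 3.49 in the affected group, and that of Gli3 to Gli1 was 2.98, 2.59 and 5.18. Between Gli3 and Gli2 the ratio was 1.59, 1.37 and 1.49, so it differed little between control and affected offspring. In the affected group, both genes stood well above their control ratio to Gli1, whose mean FPKM of 0.990 lies below 1. Summed over the family, the FPKM was 5.91 in control, 5.71 in the unaffected and 8.88 in the affected group.

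Between affected and control offspring, 4 of the 8 genes were higher by more than the threshold and 0 were lower, where 12.6% of all loci were higher and 11.5% lower. Their median log2 ratio was 0.35, against 0.02 over all loci, and all 8 ratios were positive, as were 53.0% of those of all loci, while Gli1, just under the filter, had -0.14. Above 1.5-fold, Gli2 and Gli3 remained, 2 of the 8 genes, where 3.47% of all loci were higher. Between affected and unaffected offspring, the same 4 genes were higher and 0 were lower, where 20.7% of all loci were higher and 18.5% lower. The median log2 ratio was 0.40, against 0.01 over all loci, and 7 of the 8 ratios were positive (51.2% of all loci), with Smo at -0.12 (0.19 and 0.12 when scaled to the same sum over all loci and over loci of at least 1000 bases). Over all 10 genes without the filter the median was 0.19, with Shh at -0.16 and Gli1 at -0.18, which became 0.15 and 0.13 with the same sum over all loci and 0.08 and 0.06 with that over loci of at least 1000 bases. Above 1.5-fold, 3 of the 8 remained, Gli2, Gli3 and Cdon, where 7.19% of all loci were higher. Both comparisons use the affected group, so their values are not independent of each other. Between unaffected and control offspring, 0 of the 8 genes passed the threshold in either direction, where 5.53% of all loci were higher and 6.99% lower, and 4 of the 8 ratios were positive (51.7% of all loci). When the groups were scaled to the same sum over all loci, 4 of the 8 genes were lower in unaffected offspring than in control (51.6% of all loci), and 7 rather than 4 were higher in affected than in unaffected offspring (49.8% of all loci). In bulk tissue, a change in the number of expressing cells and a change in the RNA of each cell cannot be told apart.

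**Figure D2:**
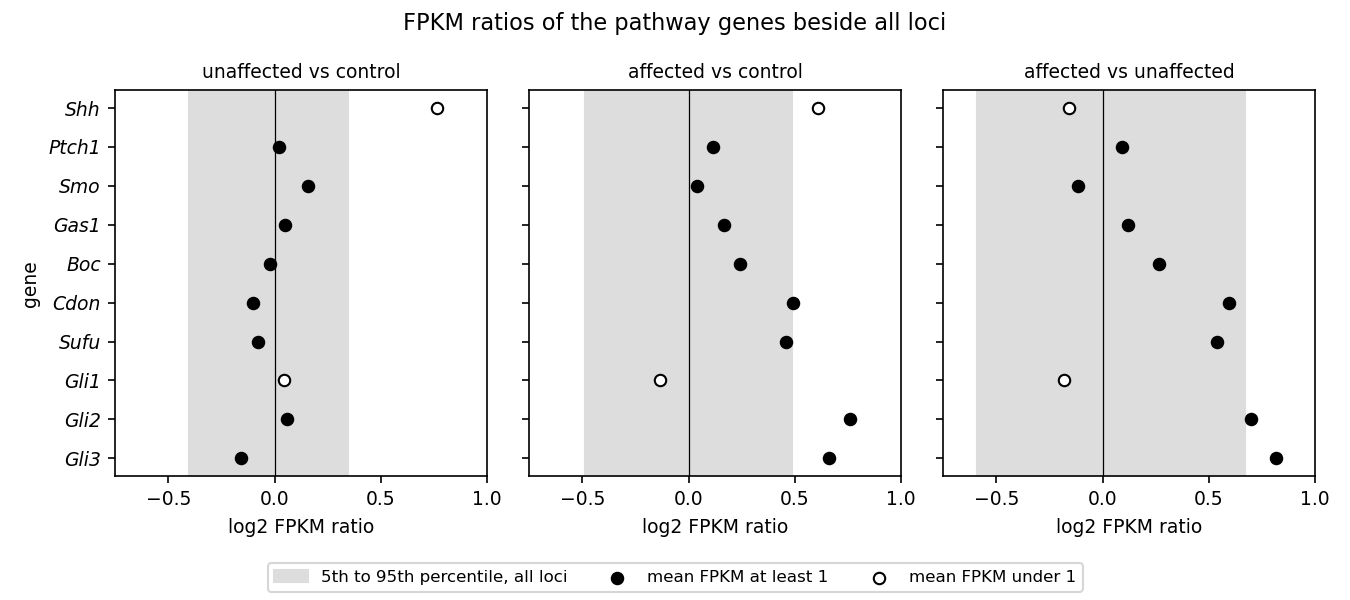
Log2 FPKM ratios of the 10 genes in the 3 comparisons, with filled points for a mean FPKM of at least 1, open points below it, and a grey band from the 5th to the 95th percentile of 15455 loci. Gli2 and Gli3 lie beyond the band in both comparisons of the affected group, Cdon at 0.49 lies at its edge against control, and the filled points of unaffected against control all lie inside it.

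Ratios in affected offspring followed transcript length over all loci, and several pathway genes have long transcripts. A length was found for 12479 of the 15455 loci (80.7%) and for all 10 genes, as the longest GENCODE transcript of the gene, and the loci were divided into 5 equal classes. The median log2 ratio of affected to control offspring went from -0.19 in the class of shortest transcripts, up to 1991 bases, to 0.19 in the class of longest transcripts, from 5374 bases. In the longest class, 24.0% of loci were higher by more than the threshold, and in the shortest 2.72%. Between affected and unaffected offspring, the median of the longest class was 0.31, and 47.3% of its loci were higher by more than the threshold, against 1.92% of the shortest class. The opposite order was seen between unaffected and control offspring, where the class medians went from 0.11 to -0.10.
Gli2, Gli3, Cdon and Ptch1 belong to the longest class, with transcripts of 6637, 8170, 7503 and 10383 bases. The log2 ratio of affected to control offspring exceeded the class median by 0.56 for Gli2, 0.47 for Gli3 and 0.30 for Cdon, while the difference for Ptch1 was -0.08. In this class, 0.120% of loci had a higher ratio than Gli2, 0.240% a higher one than Gli3 and 3.53% a higher one than Cdon. Sufu, with a transcript of 4522 bases, exceeded the median of its class by 0.37, and 0.962% of that class had a higher ratio. Against unaffected offspring the places were less extreme, with 5.53% of the class above Gli2, 1.84% above Gli3, 12.5% above Cdon and 3.65% of its own class above Sufu. The 4 genes stood above the median of their length class in both comparisons, and so did Boc and Gas1. Boc exceeded its class median by 0.15 against control and 0.16 against unaffected offspring, and Gas1 by 0.22 and 0.24. The part that length has in the ratios of the pathway genes was not tested.

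**Figure D3:**
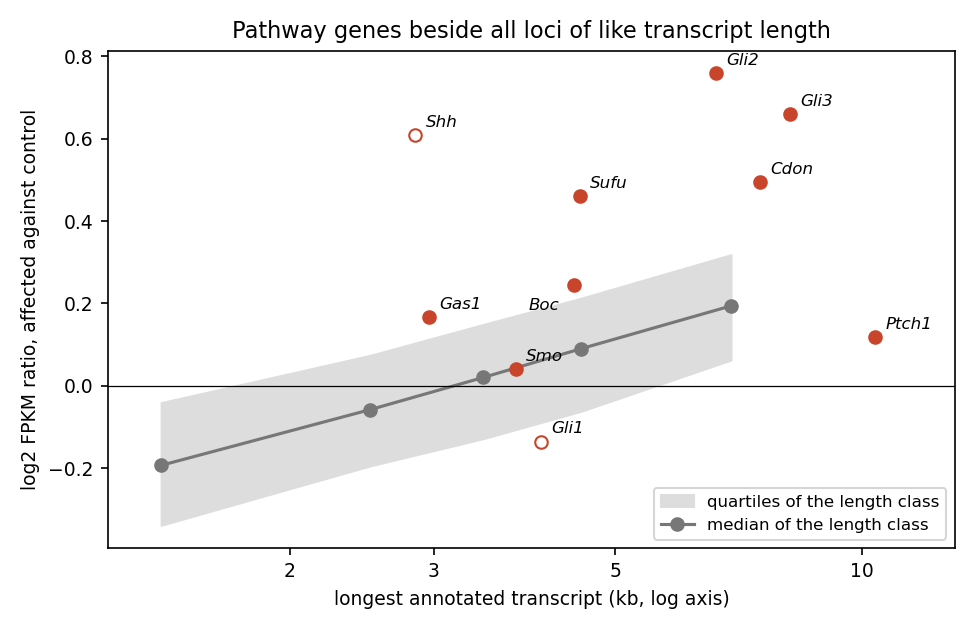
Log2 FPKM ratio of affected to control offspring against the longest annotated transcript on a log axis, with the median (grey line) and quartiles (grey band) of 5 length classes of all loci and the 10 genes as points, open where the mean FPKM is under 1. Gli2, Gli3, Cdon, Sufu, Boc, Gas1 and, among the open points, Shh lie above the upper quartile of their length class, Gli1 (open) lies below the lower quartile of its class, and Ptch1 lies below the median of its class, at a difference of -0.08.

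Other genes of the pathway were described from lists by role. They hold 43 genes beside the 10, of which 30 had a mean FPKM of at least 1. Against control, 6 of these 30 were higher by more than the threshold in affected offspring and 0 were lower (12.6% and 11.5% of all loci), with a median log2 ratio of 0.14. Against unaffected offspring, 8 were higher and 1 lower (20.7% and 18.5% of all loci), with a median of 0.18. Of the 6 genes higher against control, 5 have transcripts in the longest class, which are Scube1 (5840 bases), Scube3 (6876), Gpr161 (6862), Ift172 (5403) and Gsk3b (8303), and in that class 24.0% of loci were higher against control and 47.3% against unaffected offspring. Between unaffected and control offspring, 1 was higher and 1 lower (5.53% and 6.99% of all loci).
In the release of the ligand, Disp1, which moves lipid-bearing Shh out of the cell, had an FPKM of 1.59 in control, 1.78 in the unaffected and 2.16 in the affected group. Scube1 and Scube3, members of a family of secreted proteins that help to solubilise the ligand, had log2 ratios of affected to control offspring of 0.43 and 0.39. Scube1 went from 7.25 in control to 5.32 in unaffected and 9.77 in affected offspring, and was the only one of the 30 genes lower by more than the threshold in unaffected offspring against control. Each of the 3 genes with sufficient level in this list was above the threshold in affected against control offspring (12.6% of all loci).
In the cilium list, Gpr161, a ciliary receptor that restrains the pathway through protein kinase A, had 11.9 in control, 9.90 in the unaffected and 15.6 in the affected group. Ift172, a protein of intraflagellar transport, had 3.90, 3.80 and 5.25. Only these 2 of the 15 genes in this list were higher by more than the threshold against control, near the share of all loci (12.6%). Both belong to the longest class, in which 24.0% of loci were higher. The median of the list against control was 0.13. Against unaffected offspring, Kif7, Kif3a and Arrb1 were also above this fold (20.7% of all loci), with log2 ratios of 0.38, 0.50 and 0.48.
Among the regulators of Gli processing, Gsk3b, a kinase that promotes the cleavage of Gli proteins, was the only one beside Sufu past the threshold. This held against control (12.6% of all loci higher) and against unaffected offspring (20.7% of all loci higher). Its FPKM was 28.7 in control, 24.7 in the unaffected and 36.9 in the affected group. The catalytic subunits of protein kinase A, Prkaca and Prkacb, had log2 ratios to control of 0.14 and 0.16, and Spop and Cul3, which mark Gli proteins for degradation, 0.00 and 0.14.

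The list of receptors and co-receptors holds 7 genes, of which 4 had a mean FPKM of at least 1, and Cdon was the 1 gene higher by more than the threshold, against control (12.6% of all loci) and against unaffected offspring (20.7% of all loci).

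Genes that the pathway switches on form the list of targets. Of its 15 genes, 6 had a mean FPKM of at least 1, and 0 of these passed the threshold in either direction between affected and control offspring (12.6% of all loci higher and 11.5% lower), with a median log2 ratio of 0.13. Ccnd2 and Mycn, which drive progenitors through the cell cycle, had ratios of 0.23 and 0.20, and Olig2, a factor of ventral and oligodendrocyte progenitors, 0.06. Hhip, an inhibitor that binds the ligand, had an FPKM of 0.177 in control and 0.209 in affected offspring. Nkx2-1, which Shh induces in the ventral forebrain, was past the threshold only in the comparisons with the unaffected group, in which its FPKM was 5.67, against 3.51 in control and 3.69 in affected offspring.

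**Figure D4:**
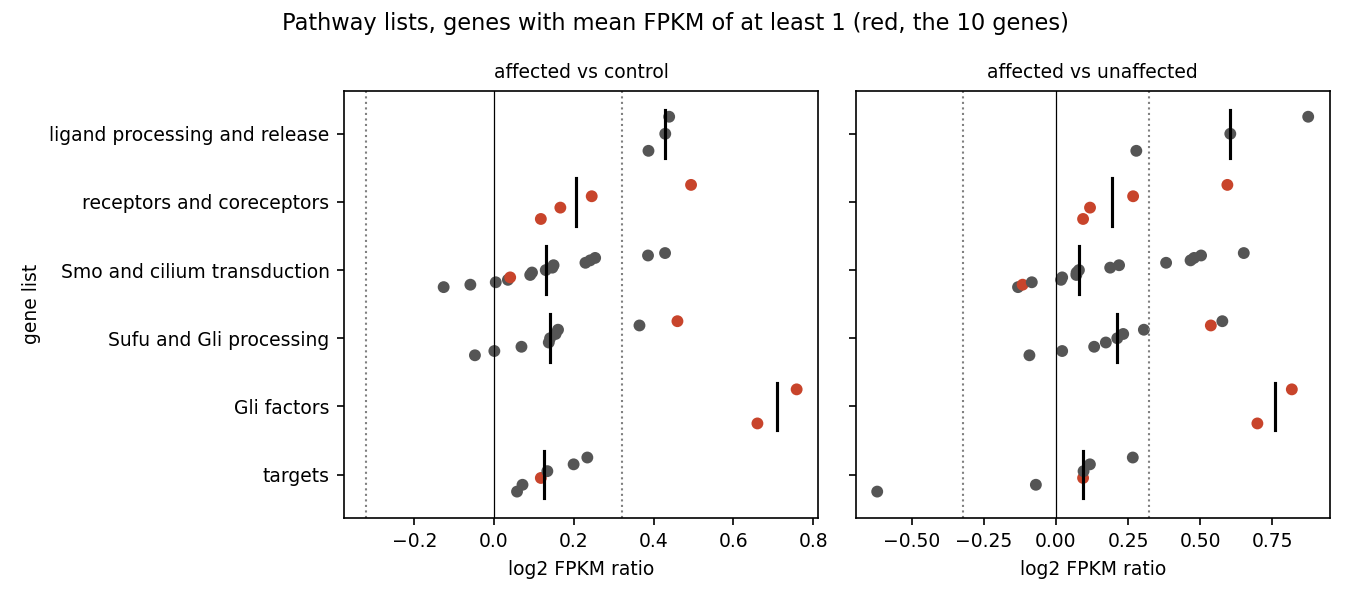
Log2 FPKM ratios of affected offspring to control (left) and to unaffected offspring (right) for pathway genes with a mean FPKM of at least 1, by list, with the 10 genes in red, a black bar at the median of each list and dotted lines at the threshold of 0.32. The Gli factors and the genes of ligand release have the highest medians against control, 0.71 and 0.43, and all points of the target list lie between the dotted lines on the left.

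Markers of the tissue and of other cell types were set beside these values, counted by the same threshold, which 12.6% of all loci exceeded upward and 11.5% downward against control, and 20.7% and 18.5% against unaffected offspring. In the list of floor plate and hypothalamus, Foxa1 and Foxa2 had an FPKM of 0.0138 and 0.0143 in control, Pomc had 0.907, and Spon1 had 5.10 of the list's sum of 6.55. Of 7 markers of cortical projection neurons, 3 exceeded the threshold when affected offspring were set against control and 6 when they were set against unaffected offspring, and their summed FPKM was 726 in control, 649 in the unaffected and 814 in the affected group. Of 7 markers of cortical progenitors, in which several Gli genes are known to be expressed, 3 were higher and 1 lower against control, and 1 was higher and 2 were lower against unaffected offspring. The summed FPKM of progenitor markers was 2173 in control, 2316 in the unaffected and 1540 in the affected group, and most of it came from Fabp7, with 2015 in control and 1352 in affected offspring. Of the 6 endothelial markers with sufficient level, 2 were higher against control and 4 against unaffected offspring. Markers of the ventral telencephalon, where hedgehog signalling is active, had summed FPKM of 166, 192 and 179 in control, unaffected and affected offspring, with 2 of 7 higher against control. Against control, the counts higher and lower were 2 and 0 of 7 for choroid plexus, 0 and 2 of 7 for meninges, 0 and 2 of 7 for microglia, 1 and 2 of 7 for the oligodendrocyte lineage, 1 and 2 of 6 for astrocytes, 0 and 2 of 4 for diencephalon and midbrain, 1 and 0 of 5 loci for red blood cells, 0 and 0 of 2 for floor plate and hypothalamus, and 0 and 0 of 1 for cerebellum, counted over markers with sufficient level. All 5 red blood cell loci were higher in unaffected offspring than in control, with a median log2 ratio of 0.41, and all 5 were lower in affected than in unaffected offspring, with a median of -0.68. Their summed FPKM was 457 in control, 598 in the unaffected and 373 in the affected group. The part of these markers in the ratios of the pathway genes was not tested.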

How the data were processed

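RNA-seq libraries of 9 mouse fetuses were made by the authors with the TruSeq RNA kit and read as paired ends of 50 bases. For the alignment to mm10, STAR as well as Bowtie with TopHat are named, and the submitters' processing notes name Bowtie2 2.2.4.0. With the Cufflinks suite (version and annotation not given in the sources used here), the authors made the deposited FPKM, 1 value per group and locus over 3 animals. Since 0 columns hold single animals, no test, SD or counting interval was made. The deposited columns of the authors' own comparisons (fold changes, test statistics, p-values and q-values) were not used. Ratios between groups were computed from the deposited FPKM without pseudocount over 15455 loci with a mean FPKM of at least 1, and a log2 ratio past 0.32 was counted as a difference. The counting of differences was run on simulated data with changes larger than the threshold and little noise. That run checked the code only and does not bear on the differences reported here. Start coordinates were raised by 1 base to count from 1.

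The 10 genes, the lists by role and 13 marker lists, written from general knowledge, were chosen with earlier results of these data known. Named beside the 10 genes are those listed genes past the threshold in any comparison, the other ligands and Hhip. An item under this rule is not reported here. Further listed genes were named after their values were seen. Lengths came from GENCODE M21. Promoters came from RefSeq, where 7 of the 10 genes matched (not Shh, Gli1 and Boc). Alternatives were other pseudocounts, filters, folds, scalings and the use of loci with a single name. Python 3.11.15 and pandas 2.3.3 were used.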

Additional observations from a re-analysis of the deposited data

How the results depend on the processing

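No paired analysis was possible because the table holds 1 value per group and no values of single animals, and no replicate was left out for the same reason. The fragments behind each value were not used here, so values under an FPKM of 1, as of Shh, Gli1 and the other ligands, have unknown precision, and the litter of each fetus is not given in the sources used here.

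Gli2, Gli3, Cdon and Sufu stayed above the threshold in affected offspring, against control and against unaffected, under every other pseudocount and scaling tried. The other filters leave a ratio unchanged, so they could not alter this. Measured from the median of its length class, Cdon stood at 0.30 against control and 0.29 against unaffected offspring, both under the threshold. Gli2, Gli3 and Sufu, measured in this way, stayed above the threshold in both comparisons. At 1.5-fold, 2 genes were higher against control (Gli2 and Gli3) and 3 against unaffected offspring. Without the filter, Shh was the 1 gene higher in unaffected offspring than in control (10.8% of all loci), and with Shh 5 genes were higher in affected offspring than in control (16.7% of all loci). Scaling all groups to the same sum over all loci moved the median log2 ratio of all loci to -0.33 for unaffected against control and 0.32 for affected against unaffected. The pathway genes then shifted with it, so that 4 were lower in unaffected offspring than in control (51.6% of all loci) and 7 higher in affected than in unaffected (49.8% of all loci). Among loci past the threshold in either direction, the share that was higher went from 44.2% to 3.76% in the former comparison and from 52.9% to 92.5% in the latter. Loci under 1000 bases held 63.5% of the summed FPKM in control, 69.7% in the unaffected and 68.3% in the affected group. Scaling over loci of at least 1000 bases, chosen after seeing the data, moved the median of all loci to -0.06, 0.19 and 0.25 and that share to 30.2%, 86.8% (52.3% before) and 88.3% in the 3 comparisons, and 7 genes were higher in affected than in unaffected offspring (42.6% of all loci) and 6 higher than in control (31.9% of all loci).

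The median log2 ratio of the genes is given for unaffected against control, affected against control and affected against unaffected, in this order. It was 0.00021, 0.35 and 0.40 as reported, -0.00014, 0.31 and 0.36 with a pseudocount of 1, 0.00016, 0.35 and 0.40 with a pseudocount of 0.1, 0.034, 0.35 and 0.19 without filter, 0.023, 0.24 and 0.27 with a mean FPKM of at least 0.5, -0.0071, 0.33 and 0.39 when centred on all loci, -0.34, 0.32 and 0.71 with the same sum over all loci, and -0.067, 0.53 and 0.64 with the same sum over loci of at least 1000 bases.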
